A study of Mus musculus with 14 samples.

Results

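Interferon-stimulated genes are genes whose transcription rises when a cell senses interferon, and 9 of them were followed here in mouse liver after a change of diet: Irf7, Isg15, Usp18, Ifit1, Ifit2, Ifit3, Rsad2, Oasl1 and Bst2. They were taken by symbol, as every probe set (a group of short probes that reads one transcript) that the array's annotation lists with exactly 1 of these symbols. That gave 10 probe sets of 8 genes, out of 34945 probe sets and 18193 genes with 1 symbol and 45101 probe sets in all. The 1 probe set that lists Isg15 also lists a second symbol, so no value can be assigned to Isg15. Rsad2 had 3 probe sets and each of the other 7 genes had 1.

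Male CBA/J mice, a common inbred strain, were caged alone, and the liver RNA of each of 14 was hybridised to an Affymetrix mouse array of its own. All of them ate 84 kcal per week of a purified diet based on AIN93M. In 7 mice this was the control diet, and in the other 7 it carried an extract of krill powder from 2 months of age. Tissue was collected at 5 months, when they had eaten their diet for 3 months. The diets held equal total protein and total lipid but other amino acids and fatty acids, so an effect of a single component of the krill diet cannot be told apart from that of the others. The labels name no infection or interferon treatment. Whole liver RNA was measured, in which fewer cells of a type and less RNA per cell cannot be told apart.

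Interferons are signalling proteins released when a cell detects foreign or misplaced nucleic acid. Type I interferon binds a receptor made of Ifnar1 and Ifnar2, the kinases Jak1 and Tyk2 then phosphorylate Stat2, and it joins Irf9 in a complex that binds a DNA element of repeated GAAA letters, the interferon-stimulated response element. Irf7 is a transcription factor that raises interferon production further. Isg15 is a ubiquitin-like protein attached to other proteins, and Usp18 both removes it and restrains signalling at the receptor. The Ifit proteins bind viral RNA, Rsad2 (viperin) makes a nucleotide that blocks viral polymerases, Bst2 (tetherin) holds budding virus at the cell surface, and Oasl1 limits translation of Irf7. In liver, hepatocytes and resident macrophages both carry this pathway.

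The element was searched for in the promoters of these genes, since the shared element is what ties them to interferon. RefSeq windows of build GRCm38.p6, from 250 bases before to 50 bases after a gene's start, were at hand for 8 of the 9 genes, all but Usp18. The core motif searched was GAAA, any 2 letters and GAAA again, on either strand (TTTC, any 2 letters, TTTC when read from the other). It stood in the windows of 5 of these 8 genes, against 3.44% of the 32851 windows and 3.99% of the 27025 genes of the table. A longer form with CT after the second GAAA, nested in the core motif, stood in 3 of the 8 (Ifit1, Ifit3 and Bst2), against 0.303% of all genes. Of the 7 genes with both a window and a measured probe set, Ifit1, Ifit3, Rsad2 and Bst2 held the core motif, and the windows of Irf7, Ifit2 and Oasl1 did not hold these letters. A match is a description of the letters and does not show that a factor binds there. The stretches of the 4 measured genes with a match are shown 5′ to 3′ on the strand of the gene, with the motif in capitals.
Ifit1 (chr19:34640765-34640833, plus strand): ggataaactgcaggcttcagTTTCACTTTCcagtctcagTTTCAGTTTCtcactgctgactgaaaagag
Ifit3 (chr19:34583353-34583436, plus strand): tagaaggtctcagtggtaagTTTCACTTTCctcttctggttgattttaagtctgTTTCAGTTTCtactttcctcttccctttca
Rsad2 (chr12:26456543-26456592, minus strand): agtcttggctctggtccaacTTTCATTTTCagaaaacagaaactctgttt
Bst2 (chr8:71537567-71537622, minus strand): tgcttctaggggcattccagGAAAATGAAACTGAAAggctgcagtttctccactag

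Ifit1 and Ifit3 carried the same pair of decamers in the same order, TTTCACTTTC and then TTTCAGTTTC. In Ifit1 they began 104 and 85 bases before the start, and in Ifit3 they began 156 and 122 bases before it. Bst2 carried 2 matches that overlap, beginning 130 and 124 bases before the start, and Rsad2 carried 1 that began 120 bases before it.

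The arrays of the diets differed in technical measures, which bear on every value that follows. The ratio of 3' to 5' signal, which rises as RNA is shortened, was higher on all 7 krill arrays than on any control array for actin (2.98 ± 0.493 against 2.09 ± 0.242, SD, n = 7 per diet) and for pyruvate carboxylase (18.3 ± 5.69 against 6.55 ± 2.34). For each of these 2 ratios the exact permutation p was 0.000583, two-sided and the smallest the design allows, and 0.00233 after Benjamini-Hochberg adjustment over 8 measures. The ratio of Gapdh did not separate the diets, at 0.964 ± 0.330 in krill against 0.806 ± 0.0496 in control. For Gapdh 2 of 7 krill arrays lay above every control array (adjusted exact permutation p = 0.193). The hybridisation spike-ins were brighter on krill replicates 2, 4, 5 and 7 than on any control array. As a gauge of signal without transcript, 78 probe sets of olfactory and vomeronasal receptors were used. Their 90th percentile, called the receptor level here, was 72.0 to 101 in control and 89.7 to 419 in krill arrays (exact permutation test, adjusted p = 0.0152). All 10 probe sets of the interferon-stimulated genes lay above the receptor level on all 7 control arrays.

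Of the 8 measured genes, 1 rose (Ifit1), 3 fell (Usp18, Ifit3 and Oasl1) and 4 did not pass the test (Irf7, Ifit2, Rsad2 and Bst2), on the krill diet against control (limma, Benjamini-Hochberg adjusted p under 0.05 over 11308 genes). That is 50% of them, where the same test called 47.7% of all genes, 22.9% higher and 24.8% lower, so the share of these genes called was near that of any gene. The median log2 change, krill minus control, was -0.34 over the 8 genes and 0.04 over all genes tested, and 6 of the 8 changes were negative. In 0 of the 8 genes did the arrays of the diets separate without overlap, which 14.1% of all genes did (7.61% with krill lower, 6.52% with krill higher), and in 0 of the 10 probe sets, against 7.08% of all probe sets. When krill replicates 2, 4, 5 and 7, the arrays of high spike-in signal, were left out, 3 of the 8 genes passed (Ifit1 higher, Irf7 and Oasl1 lower) against 32.3% of all genes, 12.7% higher and 19.6% lower. With the spike-in level as a covariate in limma 0 of the 8 genes passed, 3 of them at an unadjusted p under 0.05, while 17.5% of all genes passed. The changes in that fit were 0.69 for Ifit1, -0.72 for Irf7, -0.53 for Ifit3 and -1.15 for Oasl1. With the 3'/5' index of each array as the covariate, 0 of the 8 and 0 of all 11308 genes passed. At an unadjusted p under 0.05, 1 of the 8 and 1873 of all genes did, and the changes were 1.18 for Ifit1, -0.72 for Irf7, -0.049 for Ifit3 and -0.30 for Oasl1. The index ran from 1.56 to 2.28 in control and from 2.44 to 3.12 in krill arrays, without overlap. Its effect and that of diet can therefore not be told apart in this fit.

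**Figure D1:**
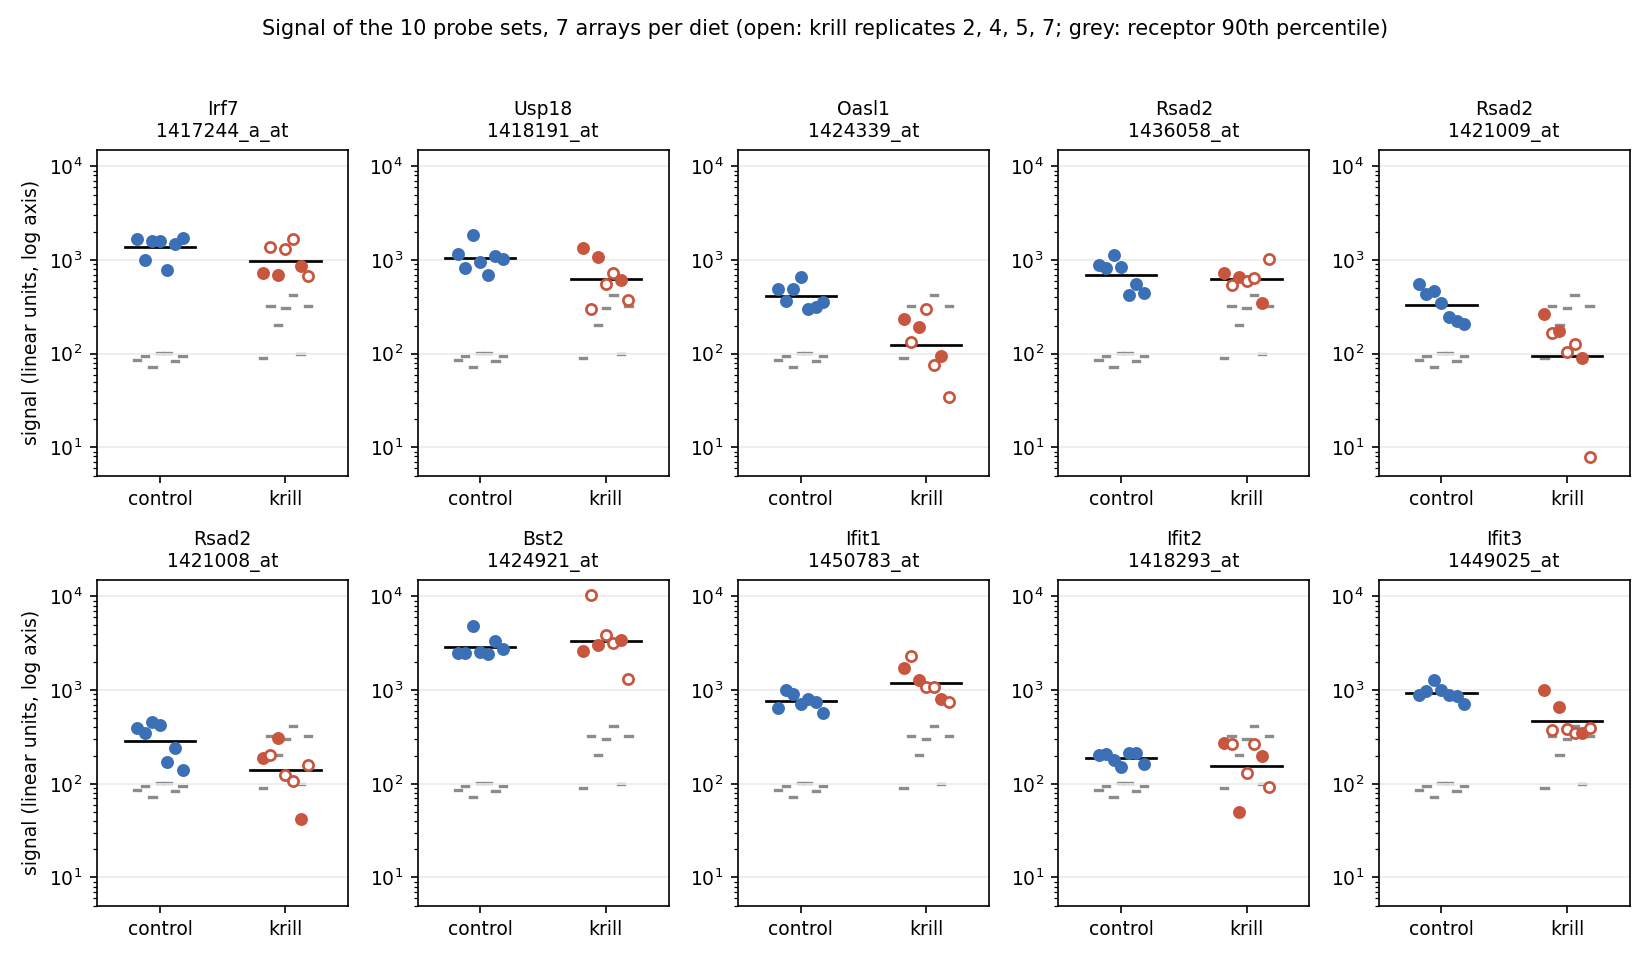
Signal of each of the 10 probe sets on every array (log axis), with control and krill arrays side by side; the bar is the geometric mean of 7 arrays, open points are krill replicates 2, 4, 5 and 7, and the grey tick at each point's horizontal place is that array's 90th percentile of the receptor probe sets. Points of the diets overlap in every panel, and most krill points of Oasl1 and of the Rsad2 probe sets 1421008_at and 1421009_at lie below their own grey tick.

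Irf7, the transcription factor that amplifies interferon production, did not pass. Its signal in control livers ran from 787 over a median of 1599 to 1724, and in krill livers from 682 over 872 to 1662. Among krill arrays, replicates 1, 3, 6 and 7 lay at 872 or below, and replicates 2, 4 and 5 at 1319 or above. The group means were 1415 ± 366 and 1047 ± 398 (SD, n = 7), a log2 change of -0.46 with a standard error of 0.24 (95% interval -0.96 to 0.03, limma adjusted p = 0.113). With the 4 arrays of high spike-in signal left out the change was -0.83 and passed (limma adjusted p = 0.0131).

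Usp18, the protease that removes Isg15 and damps the receptor, fell by 0.71 on the log2 scale. Its control signal ran from 696 over 1039 to 1839 and its krill signal from 299.9 over 618 to 1342. In replicates 1 and 3 of the krill diet the signal lay within the control range, above the control median, and 4 of the 7 krill arrays lay below every control array. The means were 1090.2 ± 369 and 712 ± 377 (SD, n = 7), with a standard error of the change of 0.29, a 95% interval of -1.32 to -0.11 and a limma adjusted p of 0.0498. The call ended in 10 of 14 fits that each left out 1 array (all but those without control replicates 2 and 5 and krill replicates 1 and 3), where adjusted p ran from 0.00938 to 0.116. It also ended with a pseudocount of 1 (0.0517), quantile normalization (0.136), no signal filter (0.0562), no trend (0.0647) and in the fit over probe sets (0.0593). The mean of krill replicates 2, 4, 5 and 7 was 486 and that of replicates 1, 3 and 6 was 1013, and without the former the change was -0.11 (adjusted p = 0.784).

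The Ifit genes, whose products bind viral RNA, moved in different directions. They lie side by side on mouse chromosome 19 in a cluster of 6 genes of the GRCm38.p6 gene table, in the order Ifit2, Ifit3, Ifit1bl1, Ifit3b, Ifit1bl2, Ifit1. Ifit1 was 1.57-fold higher and Ifit3 1.98-fold lower on the krill diet, and Ifit2 did not pass.

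Ifit1, which binds viral RNA through its 5′ end, had a control signal of 566 to 1011 with a median of 745. Its krill signal was 745 to 2309 with a median of 1078. Of the krill arrays, 5 of 7 lay above every control array, while replicates 6 and 7 lay inside the control range. The means were 772 ± 154 and 1291 ± 558 (SD, n = 7), a log2 change of 0.65 with a standard error of 0.23 (95% interval 0.17 to 1.13, limma adjusted p = 0.0258). The change was 0.67 without krill replicates 2, 4, 5 and 7 (adjusted p = 0.0350), and the call ended when control replicate 1 (adjusted p = 0.0514), control replicate 7 (0.0578) or krill replicate 2 (0.0534) was left out. Its direction depended on the scaling: the log2 change was -0.12 with arrays scaled on the spike-ins, where the median of all genes moved to -0.71.

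Ifit3, which lies next to Ifit2 in the cluster, had a control signal of 716 to 1268 with a median of 891. In krill livers it ran from 344 to 1012 with a median of 382. Krill replicate 1 lay in the upper part of the control range, and the other 6 krill arrays lay below every control array. The means were 947 ± 172 and 503 ± 251 (SD, n = 7), a log2 change of -0.99 with a standard error of 0.23 (95% interval -1.46 to -0.51, limma adjusted p = 0.00191). The change was -0.59 without krill replicates 2, 4, 5 and 7 and did not pass (adjusted p = 0.0925). Ifit3b is a near-identical copy of Ifit3, so the signal may be shared between them.

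Ifit2, the first gene of the cluster, gave 149 to 214 in control livers with a median of 203, and 49.7 to 274 in krill livers with a median of 196. The krill arrays spread to both sides: 3 lay below every control array and 3 above. The log2 change was -0.21 with a standard error of 0.31 (95% interval -0.87 to 0.44, limma adjusted p = 0.588), and 2 of the 7 krill arrays stood above the receptor level.

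Set against each other on the same array, Ifit1 and Ifit3 separated the diets. The log2 signal of Ifit1 minus that of Ifit3 averaged -0.29 in control (SD 0.20) and 1.34 in krill livers (SD 0.61, n = 7 per diet), a difference of 1.64 that a scaling of the whole array leaves nearly unchanged. Every krill liver (0.77 to 2.56) lay above every control liver (-0.51 to 0.03). All 28 pairs of the 8 genes were compared in this way by exact permutation, two-sided, after the data had been seen. For Ifit1 and Ifit3 the exact permutation p was 0.000583, the smallest the design allows, and 0.00544 adjusted over the 28 pairs. The difference was 1.26 without krill replicates 2, 4, 5 and 7 (exact permutation p = 0.00833, the smallest those arrays allow). The subtraction removes a factor shared by a whole array, but not effects that differ between probe sets. The 3'/5' ratios of actin and pyruvate carboxylase also lay higher on all 7 krill arrays than on any control array. Whether RNA shortening or background acts differently on the probe sets of Ifit1 and Ifit3 was not tested. In all, 8 of the 28 pairs passed. How many pairs of other genes pass, or separate without overlap, was not computed, and 47.7% of all genes were called singly. These pairs can therefore not be called particular to the interferon-stimulated genes. Ifit1 was in 5 of the 8 pairs, gaining on Ifit3, Oasl1, Usp18, Irf7 and Ifit2. Oasl1 was in 3, losing to Ifit1, Bst2 and Rsad2, and like Ifit2 it lay near the receptor level on krill arrays. In the last pair Ifit3 lost to Rsad2 by 0.84 (adjusted exact permutation p = 0.0367), and by 0.28 without krill replicates 2, 4, 5 and 7 (exact permutation p = 0.308). Both pairs with Rsad2 rest on its probe set 1436058_at, at a log2 change of -0.14. Its probe sets 1421008_at and 1421009_at changed by -0.93 and -1.51, against -0.99 for Ifit3 and -1.57 for Oasl1, and were not compared in this way.

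**Figure D2:**
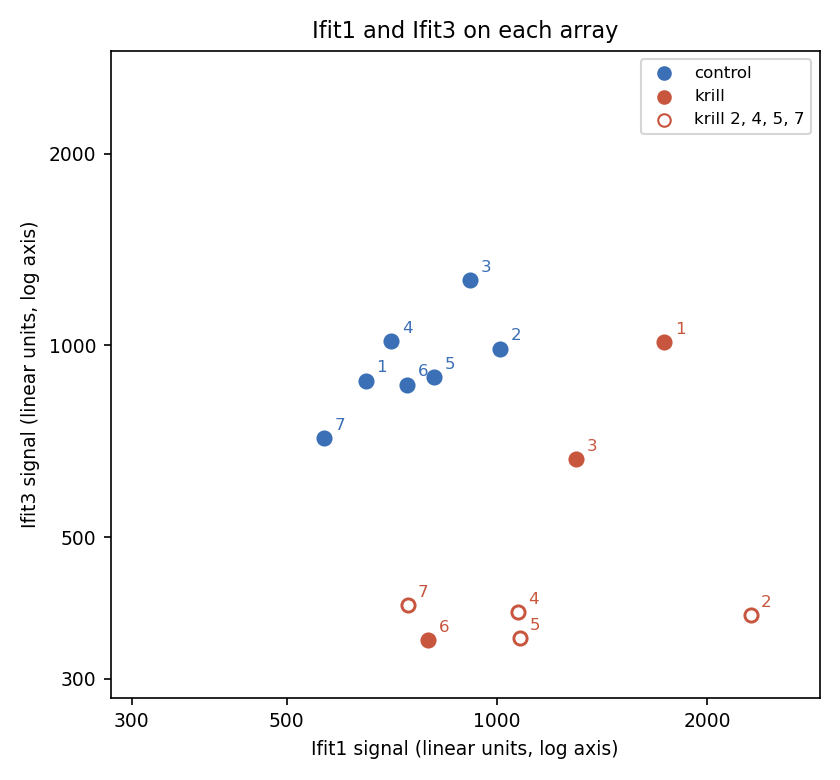
Signal of Ifit3 against signal of Ifit1 on the same array, 1 point per liver, both axes log; open points are krill replicates 2, 4, 5 and 7. Krill points lie towards more Ifit1 for a given Ifit3, with Ifit1 minus Ifit3 at 0.77 to 2.56 on the log2 scale against -0.51 to 0.03 in control.

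Between Ifit3 and Ifit1 lie Ifit1bl1 and Ifit1bl2, paralogs of Ifit1, which are outside the 9 genes and were looked up after the values of Ifit1 had been seen. Their signal was near background. In the fit over 45037 probe sets, Ifit1bl1 rose from 87.8 ± 47.6 to 214 ± 107 (SD, n = 7, limma adjusted p = 0.0380), above the receptor level on 3 of 7 control and 2 of 7 krill arrays. Its krill mean was 119 in replicates 1, 3 and 6 and 284 in replicates 2, 4, 5 and 7. The Ifit1bl2 probe set 1457976_at rose from 86.1 ± 44.2 to 384 ± 351 (SD, n = 7, limma adjusted p = 0.0291), above the receptor level on 4 of 7 arrays of each diet, with krill means of 131 and 573 in the same split. The other Ifit1bl2 probe set, 1438311_at, was called higher (limma adjusted p = 0.0368) but stood above the receptor level on 0 of the 14 arrays. The receptor level rose on the krill arrays over the same range of signal, from 90.6 ± 10.6 to 252 ± 124 (SD, n = 7). Its part in these increases was not tested.

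Rsad2, the enzyme viperin, gave different answers from its 3 probe sets. The brightest, 1436058_at, which stood for the gene, ran from 423 over 823 to 1140 in control and from 350.1 over 650 to 1019 in krill livers. Of the 7 krill arrays 6 lay below the control median and all but 1 lay inside the control range. Its log2 change was -0.14 with a standard error of 0.24 (95% interval -0.66 to 0.37, limma adjusted p = 0.641). With the 3 probe sets averaged, Rsad2 changed by -0.86 and was called lower (limma adjusted p = 0.0136). The probe set 1421009_at ran from 207 over 349 to 555 in control and from 7.82 over 127 to 267 in krill livers, with 6 krill arrays below every control array. In the fit over all 45037 probe sets it fell by 1.51 on the log2 scale, with a standard error of 0.41 (limma adjusted p = 0.0101), where 28.5% of all probe sets were called. The third, 1421008_at, ran from 142 over 348 to 456 in control and from 42.0 over 158 to 312 in krill livers (log2 change -0.93, standard error 0.35, limma adjusted p = 0.0532). The 2 probe sets with the larger decrease stood above the receptor level on 1 and on 2 of the 7 krill arrays, and the brightest one on all 7. The probe set 1421009_at changed by -0.96 without krill replicates 2, 4, 5 and 7 (limma adjusted p = 0.0697, not passing), where 13.7% of all probe sets did.

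Oasl1, which limits translation of Irf7, had the largest change of the 8 genes, at 2.98-fold lower. Its control signal ran from 300.2 over 367 to 653, and its krill signal from 34.8 over 132 to 303. Krill replicate 4 lay just inside the control range, next to the lowest control array, and the other 6 krill arrays lay below every control array. The means were 425 ± 127 and 152 ± 95.1 (SD, n = 7), a log2 change of -1.57 with a standard error of 0.34 (95% interval -2.28 to -0.86, limma adjusted p = 0.0012). In krill livers 1 of the 7 arrays stood above the receptor level, so the krill values of the other 6 cannot be told apart from background signal and the fold rests on them. The change was -1.26 without krill replicates 2, 4, 5 and 7 (limma adjusted p = 0.00411).

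Bst2, the membrane tether tetherin, did not pass. It gave 2427 to 4805 with a median of 2584 in control and 1328 to 10435 with a median of 3193 in krill livers. The range of the krill arrays took in that of the control arrays, with replicate 2 at the top and replicate 7 at the bottom. The means were 2986 ± 859 and 3985 ± 2956 (SD, n = 7), a log2 change of 0.20 with a standard error of 0.31 (95% interval -0.44 to 0.85, limma adjusted p = 0.599). The sign rested on 1 library, since the change was -0.070 without krill replicate 2. It was -0.20 with arrays centred on their median and -0.58 with spike-in scaling, but relative to the median of all genes it stayed at 0.16 and 0.13 there, against 0.16 in the deposited values.

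The scaling shifted these genes together with all others. With arrays centred on their median log2 signal the median change of all genes was -0.36, and 0 of the 8 genes were called higher and 4 lower, against 33.0% of all genes called lower. With spike-in scaling it was -0.71, and 0 were called higher and 6 lower, against 48.2% of all genes. Relative to the median of all genes, Ifit1 changed by 0.61 in the deposited values and by 0.59 with spike-in scaling, and Oasl1 by -1.62 in the deposited values.

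Among livers of the same diet the 8 genes did not vary as 1 block. Over the 28 pairs, Pearson's r of the log2 values after subtraction of each diet's mean (14 arrays) ran from -0.43 to 0.71 with a median of 0.16, and was above 0 in 19. It was highest for Usp18 and Ifit3 (0.71), followed by Ifit1 and Bst2 (0.64) and by Irf7 and Bst2 (0.54), and lowest for Irf7 and Ifit3. The points of each pair share an array and its scaling. The 5 genes whose values followed the mean of the 8 most closely over the 14 arrays were Kctd15 (r = 0.88), Srsf4 (0.88), Zfp653 (0.84), Lgmn (0.83) and Wdyhv1 (0.82), none of them on the pathway list described next.

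Of the other genes of the interferon pathway, 99 had a probe set and 83 passed the signal filter. Of these 83, 9 rose, 26 fell and 48 did not pass (limma, same fit). That is 42.2% called against 47.7% of all genes, with 31.3% called lower against 24.8% and 10.8% called higher against 22.9%. Their median log2 change was -0.15. The arrays of the diets did not overlap in 11 of the 83, 10 lower and 1 higher, against 14.1% of all genes. With the 4 arrays of high spike-in signal left out, 4 rose and 25 fell, with a median change of -0.28. That is 34.9% called against 32.3% of all genes, and 30.1% lower against 19.6%.

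Of 5 receptor genes tested, Ifnar2, a chain of the type I interferon receptor, fell from 4014 ± 476 to 1233 ± 921 (SD, n = 7). All 7 krill arrays lay below every control array, at a log2 change of -1.98 (limma adjusted p = 0.000114). It was -1.03 without krill replicates 2, 4, 5 and 7 and still passed. Ifngr2, a chain of the receptor for interferon gamma, rose by 0.77 (limma adjusted p = 0.0216), which did not hold without those arrays (0.26, adjusted p = 0.520). The other 3 receptor genes did not pass, so 40% were called against 47.7% of all genes.

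Among 9 signal transducers 4 fell and none rose. That is 44.4% called against 47.7% of all genes, where 24.8% of all genes were called lower. Jak1, the kinase at both interferon receptors, fell from 2761 ± 512 to 962 ± 527 (SD, n = 7), and Stat2, the partner of Irf9, from 613 ± 283 to 188 ± 42.6. Their log2 changes were -1.65 and -1.52 (limma adjusted p = 0.000121 and 0.000191), with all krill arrays below all control arrays in both. Stat2 stood above the receptor level on 2 of 7 krill arrays. Irf9, the DNA-binding part of the complex, fell from 846 ± 158 to 529 ± 201 (log2 change -0.72, limma adjusted p = 0.0101). With krill replicates 2, 4, 5 and 7 left out, Jak1 and Stat2 changed by -0.97 and -1.46 and passed, and Irf9 by -0.34 and did not (adjusted p = 0.236). Ptpn11, a phosphatase of the pathway, fell by 0.68.

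Of 14 sensors and adaptors 6 fell and 1 rose. That is 50% called against 47.7% of all genes, and 42.9% lower against 24.8%. Mavs, the mitochondrial adaptor of the RNA sensors, changed by -1.80, Irak1, a kinase of Toll-like receptor signalling, by -1.71, and Ddx58 (RIG-I), a sensor of viral RNA, by -1.19 on the log2 scale (limma adjusted p = 4.97e-05, 2.43e-05 and 0.000375), with Ddx58 above the receptor level on 3 of 7 krill arrays. Zbp1, a sensor of Z-form nucleic acid, rose from 148 ± 36.5 to 488 ± 214 (SD, n = 7), a log2 change of 1.55 (limma adjusted p = 0.000159) with all krill arrays above all control arrays. It was the 1 gene of the 83 that separated the diets upward. Irf2, a repressor among the interferon regulatory factors, fell by 1.39, and the other 4 factors tested did not pass (20% called against 47.7% of all genes).

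Of 38 other interferon-stimulated effectors 3 rose, 9 fell and 26 did not pass. That is 31.6% called against 47.7% of all genes, and 23.7% lower against 24.8%. Ly6e, a surface protein that blocks coronavirus entry, changed by -2.22, Lgals3bp, a secreted glycoprotein, by -2.09, and Gbp6, a guanylate-binding protein, by -1.04, while Ifi27l2a, a small mitochondrial protein, rose by 1.73 on the log2 scale. Without krill replicates 2, 4, 5 and 7, Ifi27l2a changed by 0.98 and Gbp6 by -0.67, and both passed. In the enzymes that attach Isg15, Uba7, which activates it, rose by 1.57 and Herc6, its mouse ligase, by 0.72 (limma adjusted p = 0.0130 and 0.00208). Neither passed without krill replicates 2, 4, 5 and 7 (adjusted p = 0.405 and 0.0513). Uba7 stood above the receptor level on 4 of 7 control arrays. With spike-in scaling Herc6 was at -0.059, where the median of all genes was at -0.71. Of 8 genes of class I antigen presentation 5 fell and 2 rose. That is 87.5% called against 47.7% of all genes, and 62.5% lower against 24.8%. Tapbp, Tap2 and Tap1, which take part in the supply and loading of peptide for class I molecules, changed by -2.41, -1.36 and -1.04. Psmb8, a subunit of the immunoproteasome, rose by 0.97. Tap2 stood above the receptor level on 4 and Tap1 on 3 of the 7 krill arrays.

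**Figure D3:**
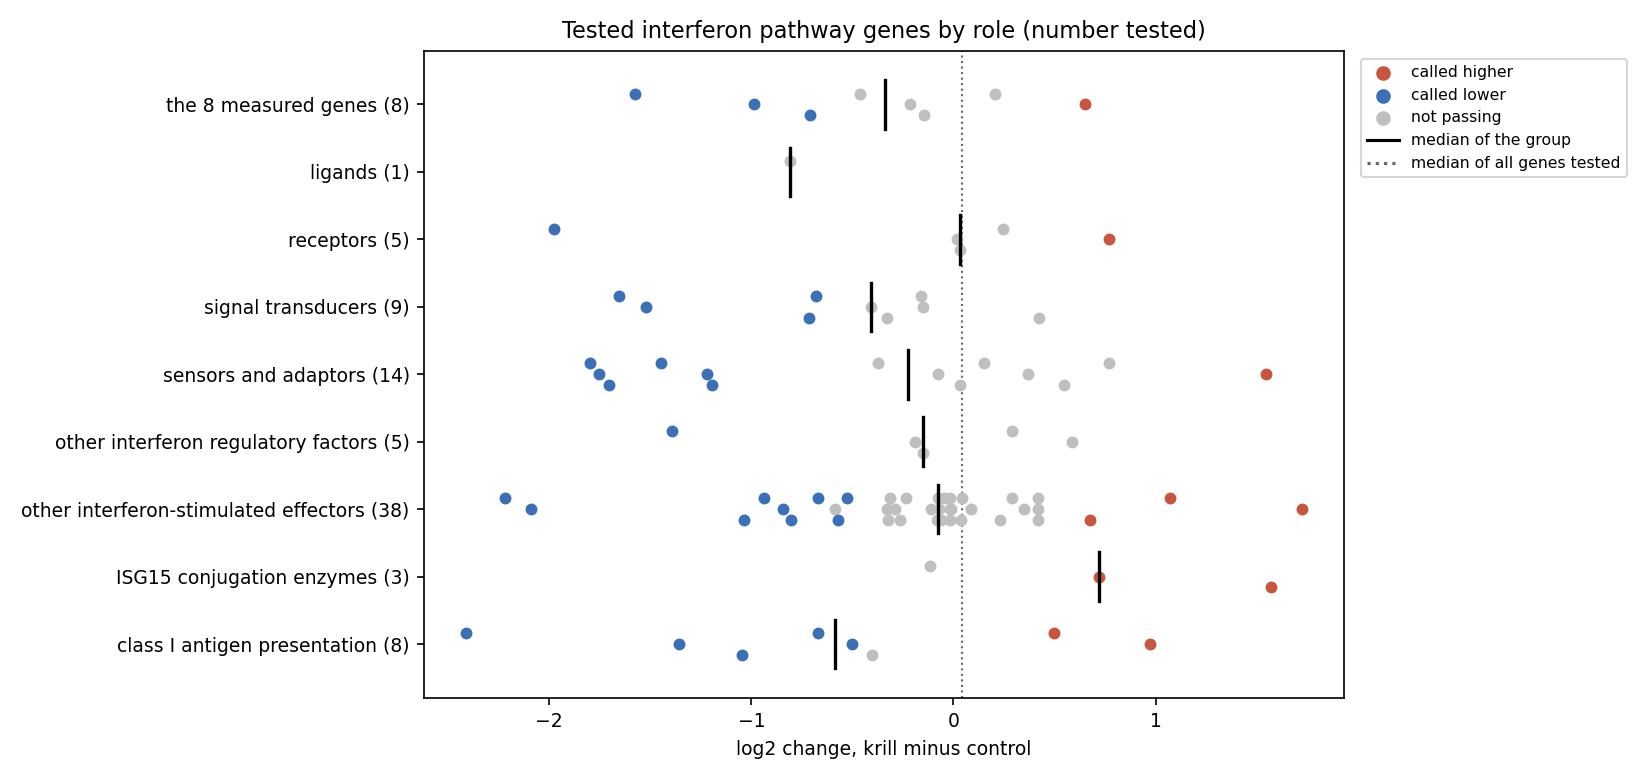
Log2 change, krill minus control, of the 83 tested pathway genes by role and of the 8 interferon-stimulated genes, 1 point per gene, coloured where called and grey where not, with a bar at the median of each role. Signal transducers have called genes on the lower side alone (4 of 9), and class I presentation holds 5 lower and 2 higher calls. Of all genes tested, 24.8% were called lower and 22.9% higher.

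Markers of cells that could bring these transcripts into liver were read beside them. The same fit called 47.7% of all genes, 22.9% higher and 24.8% lower, and no set of markers was tested against these shares. Of 11 tested markers of Kupffer cells, the resident macrophages of liver, 3 rose and 3 fell, and the summed signal of all 12 measured was 10758 to 14855 in control and 12267 to 24508 in krill livers. Of 4 tested lymphocyte markers 1 rose, with summed signals over all 10 measured of 728 to 1134 and 965 to 2470, and Cd3e, Cd3d and Cd3g lay below the receptor level on every array. Of 3 tested markers of plasmacytoid dendritic cells, a main source of type I interferon, 2 rose, with summed signals over all 6 measured of 665 to 1382 and 1029 to 3337. Of these 6, 3 lay below the receptor level on every control array, and Pacsin1 did so on every array. The krill means of Siglech, Ccr9, Spib and Pacsin1 were 128, 165, 185 and 105, below the mean receptor level of krill arrays (252, against 90.6 in control). Ly6d and Tcf4 averaged 664 and 1097 in krill livers. Of 2 tested neutrophil markers 1 rose (all 4 measured summed to 180.4 to 549 and 325 to 1036), with Camp below the receptor level on every array. Of 6 tested markers of sinusoidal endothelium 1 rose and 1 fell, and all 7 measured summed to 8376 to 9802 in control and 5058 to 13609 in krill livers. The hepatocyte markers, 8 tested with 4 higher and 1 lower, summed to 353668 to 506998 in control and 446956 to 862439 in krill livers. Albumin stood at 63215 ± 12783 and 92469 ± 24079 (SD, n = 7), Tat at 10311 ± 4298 and 3640 ± 2928, and Apob at 47986 ± 7925 and 47238 ± 29449. The defining transcripts of the labelled tissue were thus present on all arrays. The part of these cells and of the array measures in the changes of the interferon-stimulated genes was not tested. Nor was the part of the higher receptor level of krill arrays in the summed signals.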

How the data were processed

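Liver RNA of 14 mice, 1 per array, was measured as signal intensity per probe set. The deposited intensity values are linear and were made by the authors with MAS5, per the submitters' processing notes (version not given in the sources used here). MAS5 summarises a probe set and scales each array; the mean of each deposited column without the lowest and highest 2 percent of values was 500.0, so an array whose own RNA is dim has all its values raised, background included. Detection calls are not used here. The titles of the samples gave group and replicate, and the precision is limited by the number of arrays.

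Of 45101 probe sets 64 were controls, 932 were listed with several symbols and 9160 with none, and these entered no test of genes; 0 symbols needed an update. Values were taken as log2(signal + 16), which understates folds of dim genes. The upper 50% of probe sets by mean, 22518, were kept, and each of 11308 genes was read from its brightest probe set. All 8 measured interferon-stimulated genes passed this filter. Diet was fitted with limma 3.58.1 in R 4.3.3 (lmFit, eBayes with a mean-variance trend, no covariate), with Benjamini-Hochberg adjustment of p-values and a threshold of 0.05. A second fit took all 45037 probe sets that are no controls, with no filter. The procedure was tested on simulated data. Array measures and within-array differences were tested by exact permutation over all assignments of arrays to diets with scipy 1.17.1 in Python 3.11.15 (numpy 2.4.6, pandas 2.3.3), and figures were drawn with matplotlib 3.10.9.

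The genes, the pathway and marker lists and the motifs were chosen with earlier results of these data known. All 9 genes are named whatever their p; of the pathway genes, up to 4 per role past the threshold with the smallest p; and the 5 genes that correlate most with the mean of the 8. Alternatives were the pseudocount (1 or 64), quantile normalization, centring, the signal filter (none or the upper 30%), array weights, no trend, averaging a gene's probe sets, a replicate block and each array left out. The following were chosen after seeing the data: a covariate for the spike-in level or for the 3'/5' index (the actin and pyruvate carboxylase log2 ratios, averaged), scaling on the spike-ins, leaving out krill replicates 2, 4, 5 and 7, ranking probe sets on the linear mean, and the comparison of pairs of genes.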

Additional observations from a re-analysis of the deposited data

Results flagged for a closer look

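On the Rsad2 probe set 1421009_at, krill replicate 7 was the lowest array at 7.82, far below the next krill value for a group of 7 by Dixon's criterion. 20 groups of 7 arrays were examined in this way, and chance marks about 1 in 20 of them.

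A probe set listed with 2 gene symbols, 1431591_s_at, entered none of the comparisons and can be assigned to neither gene alone. It is the probe set on which Isg15, 1 of the 9 genes, is listed beside another symbol. Its signal averaged 427 in control (SD 106) and 919.9 in krill livers (SD 305, n = 7 per diet), and all 7 krill arrays (654 to 1520.2) lay above all 7 control arrays (289 to 567), and the diets did not overlap in 7.08% of all probe sets.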

How the results depend on the processing

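Over 29 alternatives, the 8 genes gave 0 to 6 calls in the fit over genes; with the upper 30% of signal 6 of them were tested, without Ifit2 and Oasl1. Calls numbered 0 with the spike-in level as a covariate in limma (unadjusted p under 0.05 in 3 genes) and 0 with the 3'/5' index (1 gene), and 2 to 5 with each array left out. The 3'/5' index did not overlap between the diets, so a fit with it cannot separate the index from diet. Of the 10 probe sets, 0, 0, 7 and 2 were called with the spike-in covariate, the 3'/5' index, spike-in scaling and without krill replicates 2, 4, 5 and 7, where 2773, 0, 12962 and 6165 of all 45037 probe sets were, and 3 to 6 with an array left out. Of the pathway genes, 15, 0 (16 at an unadjusted p under 0.05) and 56 were called under the first 3 of these, against 1978, 0 and 5785 of all 11308 genes, and 31 to 38 with an array left out. The sign turned for Usp18 (0.11 with the spike-in covariate, 0.51 with the 3'/5' index), Ifit2 (0.023 without krill replicate 3, from -0.33 with an array left out), Bst2 (-0.20 centred, -0.070 to 0.42 with an array left out, the lowest without krill replicate 2, -0.58 spike-in scaled), Rsad2 (0.11 quantile normalized, 0.14 with the 3'/5' index) with its probe set 1421008_at (0.011, 3'/5' index), Ifit1 (-0.12) and Herc6 (-0.059), both spike-in scaled. Centring and spike-in scaling moved the median of all genes by over 0.1, to -0.36 and -0.71. Oasl1 and Ifit3 were called with every array left out in turn (adjusted p up to 0.00401 and 0.00579). The cause was not tested. With the replicate number as a block, 4 genes were called (1 higher, 3 lower) and 6 probe sets. Same-numbered arrays correlated at -0.02 to 0.10. For 1 of 7 control arrays the closest krill array bore its own number, so no pairing beyond the number was seen. Signal near the receptor level limits Oasl1, Ifit2 and the dimmer Rsad2 probe sets.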
